A study of Mus musculus with 36 samples.

Results

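The marrow stem and multipotent progenitor population (HSC/MPP) of mice with mixed-lineage leukaemia was compared with the same population of control mice, using 8 of the 36 libraries of the series. The members were the 4 libraries titled as leukaemia marrow HSC and the 4 titled as control marrow HSC, each with its own mouse identifier. Both groups carried the Kmt2a-AFF1 fusion. The leukaemia mice in addition overexpressed a microRNA, named miR-130b in the sample labels and miR-130a in the study's description, and were taken at terminal leukaemia. The control mice overexpressed a scrambled microRNA and had no leukaemia. The labels gave no age, sex, vector or promoter, and the description wrote of the control as a single mouse, while the labels listed 4 mouse identifiers. Cells were sorted as lineage-negative, c-Kit-positive, Sca-1-positive and Flt3-negative, and bulk RNA was sequenced from a stranded total-RNA kit made for very small inputs. The series also held the lymphoid-primed progenitors (LMPP) and the Sca-1-negative progenitors (LK) of marrow, and leukaemia cells of the central nervous system (CNS).

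Haematopoietic stem cells renew themselves and feed every blood lineage, and multipotent progenitors are their first, faster dividing descendants. KMT2A (MLL) is a histone methyltransferase that keeps HOXA genes and MEIS1 active in stem cells, and its fusion to AFF1 (AF4), a subunit of the transcription elongation machinery, is the most common rearrangement of infant acute lymphoblastic leukaemia. MicroRNAs of the miR-130 family bind sites in messenger RNAs through the seed, the short stretch near the 5′ end, and lower the stability or translation of their targets.

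The 2 mature strands that the labels and the description name are shown because they decide whether that discrepancy matters for target matching. They were taken from RefSeq (GRCm38.p6), and the capitals mark the seed, bases 2 to 8.
mmu-miR-130a-3p: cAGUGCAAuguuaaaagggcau
mmu-miR-130b-3p: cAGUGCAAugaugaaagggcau
The strands differed at 2 of 22 positions, the first of them position 11, so both shared the seed AGUGCAA and the matching site TTGCACT in a messenger RNA. The counts were made per gene and do not measure the mature strand.

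The 8 libraries held between 3.55 and 23.0 M counts. Between 8.75% and 26.9% of the counts were background, meaning reads spread evenly over genes that blood cells do not use, estimated here from 1693 odorant, taste and vomeronasal receptor genes. Leukaemia libraries 1 to 3 had a background of 8.75% to 8.91%, whereas leukaemia library 4 had 25.9% and the 4 controls had 20.9% to 26.9%. Library 4 of the leukaemia group therefore lay inside the control range for background, and on the first principal component, which held 75.6% of the variance, it scored 10.5, between the other leukaemia libraries (-71.9 to -58.4) and the controls (40.2 to 52.8). The groups also differed in sex-linked RNA. Xist was at 4.09 to 17.5 CPM (counts scaled to each M of the library's counts) in the leukaemia libraries and at 288 to 463 in the controls, and Y-linked genes summed to 58.2 to 146 in the leukaemia libraries and to 2.25 to 18.1 in the controls. Disease, the overexpressed microRNA, deposited table, cohort and the sex-linked signal all separated the same 4 libraries from the same 4. Their parts in any difference cannot be told apart, and genes on X and Y were set aside. Below, a leukaemia or disease difference stands for all of these together.

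**Figure D1:**
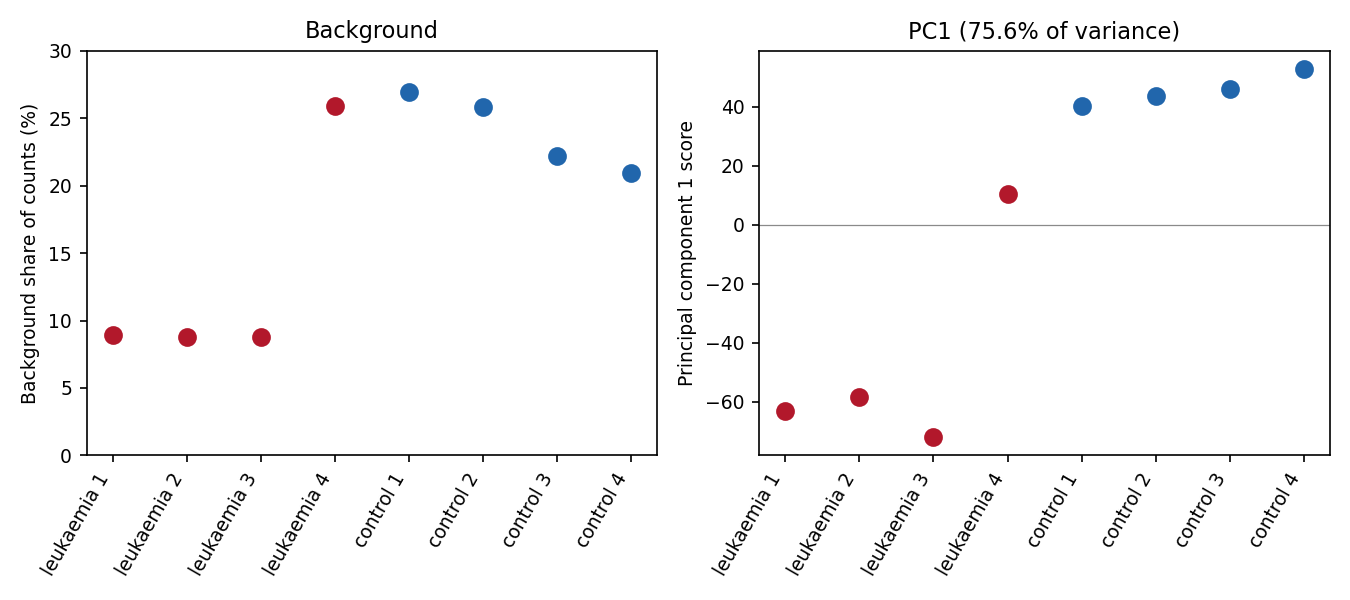
Left, the share of each library's counts that was background, in percent; right, the score of each library on the first principal component of log2 expression, without unit. Red points are leukaemia and blue points control HSC/MPP libraries; leukaemia library 4 sat at 25.9% background beside the controls (20.9% to 26.9%) and between the groups on the component.

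Of 6568 genes that exceeded the background in at least 4 of the 8 libraries, 1951 were higher and 1470 lower in leukaemia (edgeR's quasi-likelihood test, Benjamini-Hochberg adjusted p below 0.05), which is 52.1% of the genes tested, 29.7% higher and 22.4% lower. Leukaemia libraries all lay above all controls for 1698 genes (25.9%) and below them for 1386 (21.1%). Levels are given as CPM over the tested genes after scaling, and changes as log2 fold changes of leukaemia over control with their standard error (SE). The median change of all tested genes was 0.11. A gene could enter through 1 group alone: 385 of the higher genes were above background in all 4 leukaemia and no control libraries, and 67 of the lower ones the other way round. Without leukaemia library 4, 2243 genes (34.2%) were lower and 2178 (33.2%) higher. With the background share as a covariate, 794 genes (12.1%) were higher and 234 (3.56%) lower. Of these, 758 and 204 were among those of the fit without it. Among the leukaemia libraries only library 4 had a background inside the control range. Group differences under the covariate therefore rest largely on library 4 against the controls. Such a fit cannot separate background from other traits of that library. When all genes with at least 10 counts were scaled together, the median change of the same genes moved from 0.11 to 1.53, so a lower gene lost some or all of its change under that setting. In bulk samples, fewer cells of a type and less RNA per cell cannot be told apart.

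Genes of primary granules, the enzyme stores that myeloid progenitors make first, were higher in leukaemic HSC/MPP. Of 16 listed genes 14 were tested, 11 rose and 0 fell, with a median change of 1.84, against 29.7% higher and 22.4% lower over all genes tested. Mpo, the myeloperoxidase of those granules, was at 1470, 1229, 946 and 1439 CPM in the 4 leukaemia libraries and at 87.6, 103, 119 and 108 CPM in the 4 controls. Every leukaemia library was above every control, and the change was 3.61 (SE 0.21, edgeR adjusted p = 2.8e-05). Ctsg, which encodes the granule protease cathepsin G, was at 314, 238, 301 and 256 CPM against 19.9, 16.9, 33.5 and 22.2 CPM (3.58, SE 0.24). Plac8, a cysteine-rich protein found in myeloid and leukaemic cells, was at 373, 285, 353 and 302 CPM against 22.2, 33.3, 30.5 and 19.1 CPM (3.63, SE 0.22). These 3 genes were about equally high in all 4 leukaemia libraries. The neutrophil elastase gene Elane was uneven and highest in library 4, at 86.0, 79.2, 58.5 and 292 CPM in leukaemia against 13.4, 9.65, 29.3 and 10.8 CPM in the controls (3.00, SE 0.58, edgeR adjusted p = 0.00365). Its neighbour Prtn3, the proteinase 3 gene, had the same shape, with 233 CPM in leukaemia library 4 and 45.1 to 87.7 CPM in the others, against 29.0 to 34.3 CPM in the controls (1.80, and 1.04 without library 4). A gene that entered through the leukaemia libraries alone had to differ, so the count was also taken under a filter that asked for 3 libraries above background in each group. It left 8 primary granule genes, of which 7 rose, against 1049 of all 3271 genes under that filter.

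The stretches before the transcription starts of 4 primary granule genes are shown because PU.1 and C/EBP, the factors encoded by Spi1 and Cebpa, are known regulators of such genes and both of their own messages rose here. The 250 bases before each start were read from RefSeq promoters (GRCm38.p6), and capitals mark matches on either strand to GAGGAA, a PU.1 core, or to TTGCNNAA, a C/EBP motif.
Mpo, chr11:87793534-87793783, plus strand: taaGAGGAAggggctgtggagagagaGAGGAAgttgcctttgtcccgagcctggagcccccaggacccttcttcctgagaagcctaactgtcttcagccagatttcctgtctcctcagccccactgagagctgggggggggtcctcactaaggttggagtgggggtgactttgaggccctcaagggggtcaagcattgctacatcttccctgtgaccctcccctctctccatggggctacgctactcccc
Elane, chr10:79886062-79886311, plus strand: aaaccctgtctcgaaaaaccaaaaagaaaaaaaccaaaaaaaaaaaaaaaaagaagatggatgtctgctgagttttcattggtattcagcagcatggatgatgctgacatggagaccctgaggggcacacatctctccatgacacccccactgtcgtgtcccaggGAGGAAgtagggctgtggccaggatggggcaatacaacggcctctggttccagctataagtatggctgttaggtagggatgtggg
Ctsg, chr14:56102575-56102824, minus strand: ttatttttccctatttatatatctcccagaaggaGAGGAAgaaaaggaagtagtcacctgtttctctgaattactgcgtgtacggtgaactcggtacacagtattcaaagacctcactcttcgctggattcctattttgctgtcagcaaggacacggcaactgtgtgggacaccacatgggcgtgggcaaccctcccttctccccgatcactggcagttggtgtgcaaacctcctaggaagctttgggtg
Prtn3, chr10:79879417-79879666, plus strand: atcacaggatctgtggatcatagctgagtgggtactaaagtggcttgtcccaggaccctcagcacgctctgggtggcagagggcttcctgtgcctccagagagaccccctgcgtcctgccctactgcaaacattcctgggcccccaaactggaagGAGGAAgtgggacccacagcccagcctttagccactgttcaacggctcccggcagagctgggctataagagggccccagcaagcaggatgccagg
Each of the 4 held GAGGAA and none held TTGCNNAA. Of the 12 tested primary granule genes with a promoter in the table, 7 held GAGGAA, against 25.9% of all 27025 genes listed and 26.1% of the tested genes. TTGCNNAA was in 1 of the 12 and in 10.8% of all genes listed. Over the whole comparison the shares hardly differed, with GAGGAA before 26.8% of the higher and 26.9% of the lower genes that had a promoter in the table. None of the 9 stem cell genes with a listed promoter held GAGGAA in this window, and 2 held TTGCNNAA. Of 10 tested secondary granule and neutrophil genes with a listed promoter, 4 held GAGGAA and 4 held TTGCNNAA. Whether either factor acted on these genes was not tested.

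Secondary granule and neutrophil genes mark a later step of granulocyte development. Of 17 listed genes 12 were tested, 7 rose and 0 fell (median 2.09), some of them tested through the leukaemia group alone: with 3 libraries of each group required, 3 genes were left, of which 2 rose. The shares over all genes tested were 29.7% higher and 22.4% lower, and 1049 of 3271 genes rose under the stricter filter. S100a9, a calcium-binding protein abundant in neutrophils and monocytes, was at 379.6, 291, 142 and 484 CPM in leukaemia and at 24.7, 16.4, 4.5 and 1.91 CPM in the controls, the largest rise among the named genes (4.67, SE 0.65, edgeR adjusted p = 0.000696). Its partner S100a8 was at 145, 106, 46.4 and 177 CPM against 9.47, 8.44, 2.5 and 4.45 CPM (4.20, SE 0.50). Ngp, the neutrophilic granule protein, was at 493, 402, 177 and 591 CPM against 29.6, 33.3, 15.0 and 25.4 CPM (4.01, SE 0.40). In all 3 genes leukaemia library 3 was the lowest and library 4 the highest of the group, and no control reached them. Camp, the cathelicidin gene, rose by 3.63 (SE 0.46), and Chil3, Ltf and Lcn2 by 2.70, 2.30 and 1.88. The markers of the mature neutrophil were not part of this: Ly6g was at 0.21 to 8.79 CPM in leukaemia and 9.53 to 16.2 in the controls, Retnlg at 0.21 to 10.4 and 5.76 to 9.65, and both stayed below the filter. The summed level of the 5 defining neutrophil markers was 479 to 1797 CPM in leukaemia and 69.8 to 118 CPM in the controls. Whether a few sorted neutrophil precursors carried this signal was not tested.

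Monocyte genes rose in 6 of 9 tested members of a list of 21 (0 fell, median 1.47), and in 2 of the 3 that were left with 3 libraries of each group required. Among all genes tested 29.7% rose and 22.4% fell, and 1049 of 3271 rose under the stricter filter. Irf8, the transcription factor that directs monocyte and dendritic fates, was at 668, 208, 262 and 477 CPM in leukaemia and at 42.1, 51.4, 46.8 and 69.2 CPM in the controls (2.96, SE 0.38, edgeR adjusted p = 0.000433). Mpeg1, the macrophage perforin, was at 628, 142, 104 and 465 CPM against 15.7, 16.4, 16.5 and 24.1 CPM (4.23, SE 0.59). Lyz2, the lysozyme gene of macrophages and neutrophils, was at 277, 212, 107 and 1253 CPM against 52.2, 51.9, 43.6 and 34.9 CPM (3.33, SE 0.70). Libraries 1 and 4 were thus the high ones for Irf8 and Mpeg1 and library 4 alone for Lyz2, which still rose without it, by 2.01 (edgeR adjusted p = 5.4e-05). Ly6c2, a monocyte surface protein, behaved like Lyz2 (350 CPM in library 4, 67.1 to 92.5 in the others, 20.3 to 22.4 in the controls, 2.80 with and 1.81 without library 4), and F13a1, coagulation factor XIII, was high in libraries 1 and 4 (354 and 486 CPM against 28.8 to 41.3 in the controls). Resident macrophage markers were low. All 5 were above background in at least 1 leukaemia library, Adgre1 in 3, and among controls only C1qb was, in 1. C1qa, C1qb, C1qc, Adgre1 and Mrc1 summed to 25.2 to 88.1 CPM in leukaemia and 78.6 to 87.0 CPM in the controls, and C1qa was at 0 in leukaemia library 3.

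Of 19 tested fate-setting transcription factors 8 rose, 0 fell and 11 did not pass the test (median 0.68), against 29.7% higher and 22.4% lower over all genes tested. Cebpa, which starts the granulocyte and monocyte programme, was at 77.1, 115, 114 and 74.3 CPM in leukaemia and at 12.02, 14.7, 17.3 and 8.26 CPM in the controls (2.82, SE 0.25, edgeR adjusted p = 0.000102). Spi1, the PU.1 gene, was at 105, 96.6, 134 and 116 CPM against 46.0, 43.9, 37.3 and 44.5 CPM (1.40, SE 0.15, edgeR adjusted p = 0.000195). Ikzf1, the Ikaros gene of lymphoid and myeloid commitment, was at 286, 273, 306 and 164 CPM against 113, 96.3, 122 and 94.7 CPM (1.27, SE 0.21). The groups did not overlap for any of these. In leukaemia library 4 Spi1 lay inside the range of the other leukaemia libraries, and Cebpa was the lowest of its group. Id2, an inhibitor of E proteins, rose by 1.90, mostly through leukaemia library 1 (102 CPM against 18.9 to 28.5 in the others), without which the change was 0.96 (edgeR adjusted p = 0.0417). The call of Id2 was lost without control 2 or 3 (edgeR adjusted p = 0.0545 and 0.0541) and with the background covariate (1.41, edgeR adjusted p = 0.158). The count of 8 was 5 without any 1 of controls 2 to 4. Cebpb, the C/EBP of later myeloid cells, was at 50.2 CPM in leukaemia library 4, at 6.59 to 10.4 CPM in the other 3 and at 2.5 to 10.2 CPM in the controls, and did not pass the test (1.69, edgeR adjusted p = 0.0712).

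**Figure D2:**
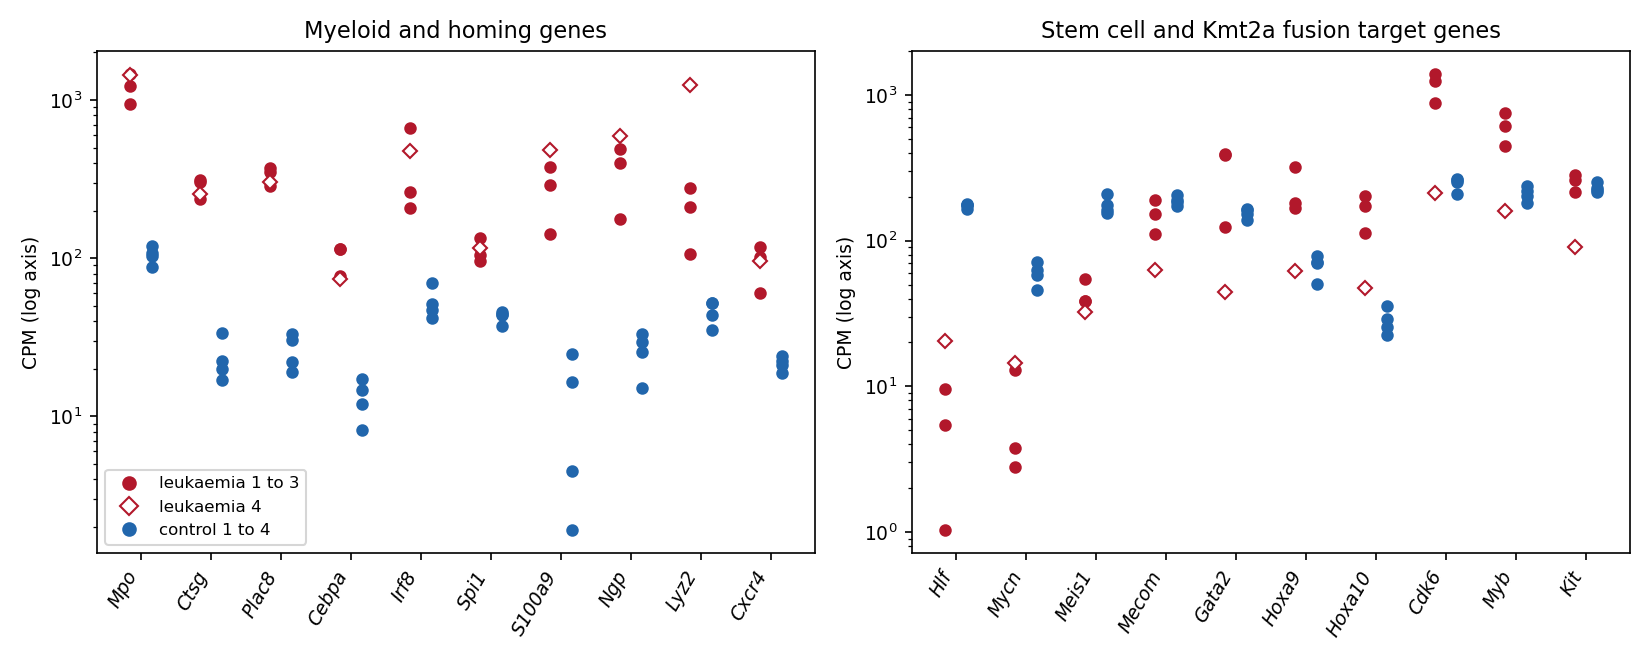
CPM on a log axis of 10 myeloid and homing genes (left) and 10 stem cell and Kmt2a fusion target genes (right), with 1 symbol per library; red circles are leukaemia libraries 1 to 3, open red diamonds leukaemia library 4 and blue circles the 4 controls. For Mpo the leukaemia libraries lay between 946 and 1470 CPM against at most 119 CPM in controls, whereas for Cdk6 library 4 (214 CPM) lay among the controls (208 to 265 CPM).

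Stem cell regulators fell in part. Of 30 listed genes 11 were tested, 5 fell and 0 rose (median -0.60), against 22.4% lower and 29.7% higher over all genes tested. Some were tested through the controls alone: with 3 libraries of each group required, 6 genes were left, of which 2 fell and 0 rose. Under that filter 761 of all 3271 genes fell and 1049 rose. Hlf, a bZIP transcription factor that marks and maintains stem cells, was at 5.39, 9.53, 1.03 and 20.5 CPM in leukaemia and at 176, 175, 178 and 165 CPM in the controls (-4.32, SE 0.64, edgeR adjusted p = 0.000974). It was above background in 4 of 4 controls and in 0 of 4 leukaemia libraries. Mycn, the Myc family member of resting stem cells and fetal progenitors, was at 3.78, 13.01, 2.77 and 14.5 CPM against 70.9, 45.8, 58.1 and 62.9 CPM (-2.83, SE 0.50). Leukaemia library 4, the one with control-like background, was the highest leukaemia library for both genes and still far below every control. Meis1, also on the list, is described with the HOXA genes.

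The loss was not shared by the whole list. Mecom, the EVI1 factor of long-term stem cells, was at 112, 189, 153 and 62.8 CPM in leukaemia and at 207, 184, 173 and 189 CPM in the controls, overlapping groups that did not pass the test (-0.54, SE 0.29, edgeR adjusted p = 0.131), although it passed without leukaemia library 4 (-0.42, edgeR adjusted p = 0.0308) and with the background covariate (-1.35, edgeR adjusted p = 0.00942). Gata2, which drives stem cell and mast cell programmes, split the leukaemia libraries, at 385 and 393 CPM in libraries 2 and 3, 124 CPM in library 1 and 44.7 CPM in library 4, against 139 to 166 CPM in the controls (0.61, SE 0.54, edgeR adjusted p = 0.358). Without library 4 it was called higher (0.84, edgeR adjusted p = 0.0232). Among the 19 genes that failed the filter were Procr, Fgd5 and Slamf1, surface or signalling proteins of long-term stem cells. Procr was at 2.87 to 12.9 CPM in leukaemia and 20.3 to 31.0 CPM in the controls, Fgd5 at 8.76 to 49.9 and 68.2 to 84.8, and Slamf1 at 10.9 to 27.5 and 51.3 to 60.3, with leukaemia library 4 the highest of its group each time. Procr was above background in 0 leukaemia and 2 control libraries, Fgd5 in 0 and 3, and Slamf1 in 1 and 0. The levels of Slamf1 in the controls were thus not told from background. The 7 defining stem cell markers summed to 146 to 242 CPM in leukaemia and to 612 to 638 CPM in the controls.

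Adgrl4, Tie1 and Tal1 were also among the 12 largest falls of named genes. Adgrl4, an adhesion receptor of endothelial cells, was at 11.9, 10.9, 2.56 and 27.8 CPM in leukaemia and at 201, 193, 186 and 152 CPM in the controls (-3.82, SE 0.54, edgeR adjusted p = 0.000795). Tie1, a receptor tyrosine kinase of endothelium, was at 4.06, 8.59, 4.1 and 35.7 CPM against 67.7, 92.6, 79.3 and 74.3 CPM (-2.63, SE 0.64, and -3.96 without leukaemia library 4). Tal1, the basic helix-loop-helix factor that sets up blood and vessel fates, was at 8.97, 11.0, 7.69 and 20.1 CPM against 76.5, 67.1, 58.3 and 64.2 CPM (-2.50, SE 0.30, edgeR adjusted p = 0.000306). Eng, the endoglin co-receptor of TGF-beta, fell by 1.76, and Tgfbr3, another such co-receptor, by 1.75. Both calls were lost when all genes with at least 10 counts were scaled together (-0.54 and -0.48, edgeR adjusted p = 0.206 and 0.347), and that of Tgfbr3 with the background covariate (-1.06, edgeR adjusted p = 0.0579). Since several of these genes are also known from vessels, the 4 defining endothelial markers are given beside them. Cdh5, the cadherin of endothelial junctions, was at 8.62, 11.1, 15.6 and 44.5 CPM in leukaemia and at 52.0, 66.1, 61.6 and 84.5 CPM in the controls (-1.74, SE 0.47, edgeR adjusted p = 0.0143), with no overlap, and was above background in 4 controls and 2 leukaemia libraries. Its call was lost with the covariate (-0.99, edgeR adjusted p = 0.0867) and when all genes with at least 10 counts were scaled together (-0.68, edgeR adjusted p = 0.106). Kdr and Emcn were above background in none of the 8 libraries. Pecam1, which blood cells also express, rose by 1.19, and by 0.43 with the background covariate (edgeR adjusted p = 0.17). The 4 markers summed to 194 to 254 CPM in leukaemia and to 213 to 238 CPM in the controls. Pecam1 was the largest part of the leukaemia sums, at 180, 179, 218 and 85.0 CPM against 70.5 to 76.0 CPM. Kdr was at 10.3 to 48.8 CPM in leukaemia and 55.5 to 66.1 CPM in the controls, and Emcn at 4.27 to 15.6 and 17.2 to 21.5 CPM. The expected background was 8.56% to 10.1% of the sum in leukaemia libraries 1 to 3, 40.1% in library 4 and 36.4% to 44.6% in the controls. The part of endothelial RNA in these falls was not tested. Csgalnact1, Gcnt2 and Bahcc1, which encode 2 glycosyltransferases and a chromatin protein, were in the same group of largest falls, with -2.96, -2.64 and -2.52.

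The genes behind the sorting gate were compared next. Kit was at 216, 262, 283 and 90.4 CPM in leukaemia and at 222, 229, 252 and 217 CPM in the controls (-0.11, SE 0.30, edgeR adjusted p = 0.772), and Ly6a, the Sca-1 gene, at 16.3, 24.3, 43.3 and 16.5 CPM against 25.6 to 29.8 CPM (-0.14, edgeR adjusted p = 0.733, and 1.30 when all genes with at least 10 counts were scaled together). Flt3, used to exclude LMPP, was at 128, 38.8, 111 and 54.9 CPM against 56.3 to 67.0 CPM and failed the filter. Kit was lowest in leukaemia library 4, and Flt3 was highest in leukaemia libraries 1 and 3. With the background covariate Kit was called lower (-1.10, edgeR adjusted p = 0.00824). Cd48, a surface protein that appears as stem cells turn into progenitors, was at 82.0, 82.4, 63.7 and 47.9 CPM in leukaemia and at 10.9, 20.02, 17.5 and 7.62 CPM in the controls (2.26, SE 0.30, edgeR adjusted p = 0.000567). Cd93, a C-type lectin-like receptor of progenitors and of leukaemia stem cells, was at 345, 311, 398 and 226 CPM against 126, 113, 121 and 96.6 CPM (1.49, SE 0.20). Both groups of libraries were separate for Cd48 and Cd93, as they were for Cd34, the sialomucin of progenitors (178, 163, 171 and 115 CPM against 80.7 to 96.9 CPM, 0.79, edgeR adjusted p = 0.00539). With the background covariate Cd34 did not pass (0.46, edgeR adjusted p = 0.104). Itga2b, the CD41 integrin, fell by 1.36, a call lost with the covariate (-1.01, edgeR adjusted p = 0.0616) and when all genes with at least 10 counts were scaled together (-0.06, edgeR adjusted p = 0.908). In the whole list of sort and surface markers 4 of 11 tested genes rose and 2 fell, near the 29.7% and 22.4% of all genes tested.

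The targets of the Kmt2a fusion gave a divided picture. Hoxa9, the homeobox gene most closely tied to KMT2A leukaemia, was at 167, 182, 319 and 62.1 CPM in leukaemia and at 78.6, 71.9, 69.8 and 50.2 CPM in the controls (1.43, SE 0.40, edgeR adjusted p = 0.0167). Hoxa10 was at 113, 174, 202 and 47.5 CPM against 29.1, 22.7, 35.5 and 25.4 CPM (2.24, SE 0.39, edgeR adjusted p = 0.00242). Meis1, the cofactor with which HOXA9 binds DNA, was instead at 38.6, 55.0, 38.7 and 32.5 CPM against 211, 176, 163 and 156 CPM (-2.10, SE 0.19, edgeR adjusted p = 0.000111). So 2 HOXA genes rose and their cofactor was at 32.5 to 55.0 CPM in all 4 leukaemia libraries, with no overlap. Meis1 lost its call when all genes with at least 10 counts were scaled together (-0.62, edgeR adjusted p = 0.303) and with no filter (-0.58, edgeR adjusted p = 0.404). Without control 4 Hoxa9 did not pass (1.32, edgeR adjusted p = 0.0506), nor did it with the background covariate (0.22, edgeR adjusted p = 0.709). Hoxa6 and Hoxa7 did not pass the test (0.71 and 0.68) but did without leukaemia library 4 (0.90 and 0.78, edgeR adjusted p = 0.0393 and 0.00191), and 8 genes of the list, Hoxa5 and Pbx3 among them, failed the filter. Library 4 of the leukaemia group had the lowest Hoxa9 and Hoxa10 of its group, and Hoxa9 lay inside the control range there.

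Outside the HOXA cluster, 4 of 10 tested fusion targets rose and 0 fell (median 0.53), against 29.7% and 22.4% of all genes tested. Cdk6, the cell cycle kinase that KMT2A-rearranged cells need, was at 887, 1260.0, 1407 and 214 CPM in leukaemia and at 252, 259.8, 265 and 208 CPM in the controls (1.94, SE 0.47, edgeR adjusted p = 0.00915). Myb, a transcription factor of self-renewing progenitors, was at 447, 617, 751 and 159.7 CPM against 239, 204, 221 and 181 CPM (1.22, SE 0.39, edgeR adjusted p = 0.0252). The other 2 were Runx1 and Zeb2 (0.55 and 0.51). The count of 4 fell to 1 without leukaemia library 3 or any 1 of controls 2 to 4, was 2 without leukaemia library 2 and 8 without library 4, and Myb lost its call without leukaemia library 2 or 3 or any 1 of controls 2 to 4 (edgeR adjusted p = 0.0565 to 0.0687). Both Cdk6 and Myb were above every control in leukaemia libraries 1 to 3, while in library 4 Cdk6 lay inside and Myb below the control range. With the background covariate neither passed (Cdk6 0.21 and Myb -0.06, edgeR adjusted p = 0.679 and 0.909), and the list then had 0 higher and 3 lower. Kmt2a itself, whose reads can come from the normal gene or from the fusion's part of it, did not pass the test (0.10, SE 0.31, edgeR adjusted p = 0.786), and Aff1 rose by 0.52 (edgeR adjusted p = 0.0332), a call lost without any 1 library other than leukaemia library 4 (edgeR adjusted p = 0.0556 to 0.0977). In the list of Kmt2a complex and elongation partners 4 of 15 tested genes rose and 0 fell (median 0.28), near the 29.7% of all genes tested, and the count was 1 without any 1 library other than leukaemia library 4, and 6 without that one.

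Messages with a miR-130 site were set beside those without one. Of 4751 tested genes with an annotated 3′ untranslated region, 409 (8.61%) held at least 1 match to the site TTGCACT. Of these 35.5% rose and 18.8% fell (median change 0.22), against 33.9% and 19.1% of the 4342 genes without a match (median 0.20). The regions with a match were longer, with a median of 1788 bases against 732. Within regions of 1000 to 3000 bases, 36.6% rose and 12.4% fell with a match (202 genes, median 0.28) and 36.8% rose and 17.0% fell without one (1425 genes, median 0.26). The 84 genes whose match was followed by A, the strongest kind, rose in 39.3% and fell in 23.8% (median 0.22). The 50 genes with 2 or more matches, whose regions were the longest (median 2907.5 bases), rose in 48.0% and fell in 14.0% (median 0.41). These shares are a description, and the count data hold no measurement of the microRNA itself.

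Of 26 targets reported for the family 9 were tested, 3 rose and 2 fell, near the 29.7% and 22.4% of all genes tested. Sites of 3 of them are shown with flanking bases, from GENCODE M21 transcripts in GRCm38 coordinates, with the site in capitals, because these genes carry matches yet changed in opposite directions.
Abca1, chr4:53033875-53033904, minus strand: agcgaggtcttcctTTGCACTgtgtcaagt
Tsc1, chr2:28690729-28690758, plus strand: aggcaggcgtttttTTGCACTaggaagatt
Cbfb, chr8:105216109-105216138, plus strand: ccactgccatggttTTGCACTataatgcct
Abca1, the cholesterol exporter, was at 36.4, 32.1, 29.1 and 72.8 CPM in leukaemia and at a mean of 114 CPM in the controls (SD 15.8, n = 4; change -1.42, SE 0.28, edgeR adjusted p = 0.0043). Its call was lost when all genes with at least 10 counts were scaled together (-0.18, edgeR adjusted p = 0.695). Tsc1, an inhibitor of mTOR signalling, was lower by a small margin (-0.48, edgeR adjusted p = 0.0337), which turned to 0.94 under that scaling and to 0.02 with no scaling factor. The call of Tsc1 was also lost without leukaemia library 1 or 2 or control 3 or 4 (edgeR adjusted p = 0.078 to 0.101). Cbfb, the partner of RUNX factors, was at 107, 109.6, 116 and 61.2 CPM against 29.3, 42.2, 38.04 and 40.7 CPM (1.40, SE 0.22, edgeR adjusted p = 0.00142). The groups were separate for Abca1 and Cbfb. Tgfbr2 and Csf1, which also carry the site, failed the filter.

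Genes for homing and adhesion rose in 10 of 15 tested members of a list of 22, and 2 fell (median 1.18), of which none was called without any 1 library other than leukaemia library 4. Among all genes tested 29.7% rose and 22.4% fell. Cxcr4, the receptor that holds stem cells in the marrow, was at 118, 60.5, 102 and 96.5 CPM in leukaemia against 18.7, 21.0, 24.03 and 22.2 CPM (2.13, SE 0.22, edgeR adjusted p = 0.000142). Itga4, the alpha4 integrin subunit, was at 753, 662, 839.5 and 178 CPM against 144, 136, 136 and 109 CPM (2.21, SE 0.40), and its partner Itgb7 at 210.3, 123, 122 and 179 CPM against 36.5 to 48.3 CPM (1.85, SE 0.21). All leukaemia libraries exceeded all controls for the 3 genes, with Itga4 in library 4 only just above them. With the background covariate Itga4 did not pass (0.81, edgeR adjusted p = 0.0877). Selplg, the P-selectin ligand, and Ccr1, a chemokine receptor, rose by 1.91 and 2.12.

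Leukaemic HSC/MPP had higher levels of cell cycle genes. Of 40 listed genes 30 were tested, 20 rose and 0 fell, and all 30 changes were positive (median 0.81, against 0.11 over all genes tested). Higher calls made up 29.7% of all genes tested and lower calls 22.4%. Mki67, the proliferation antigen, was at 1265, 998, 1032 and 664 CPM in leukaemia and at 327, 223, 283 and 240.1 CPM in the controls (1.88, SE 0.23, edgeR adjusted p = 0.000383). Top2a, the topoisomerase of dividing cells, was at 522, 465, 334 and 339.8 CPM against 135, 128, 127 and 126 CPM (1.69, SE 0.18). Rrm2, a subunit of ribonucleotide reductase, was at 72.0, 64.0, 49.2 and 62.4 CPM against 22.0, 22.7, 23.0 and 24.8 CPM (1.43, SE 0.16). The groups were well apart in each, and library 4 stood with the other leukaemia libraries. Kif11 and Mcm4 rose by 1.55 and 1.36, while the mitotic genes Cdk1 and Ccnb1 did not pass the test (0.20 and 0.10). Lgals1, galectin 1, which is abundant in activated and dividing cells, was among the 12 largest rises (222, 258, 186 and 246 CPM against 23.3, 29.7, 16.5 and 22.9 CPM).

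Ribosomal protein genes rose together: 48 of 49 listed genes were tested and 48 rose, with changes from 0.48 to 1.33 and a median of 0.99. For this and the next lists, the shares over all genes tested were 29.7% higher and 22.4% lower. Rpl8 was at 666, 719, 676 and 464 CPM in leukaemia against 286, 251, 261 and 226 CPM in the controls (1.30, SE 0.18, edgeR adjusted p = 0.00075). Library 4 was the lowest leukaemia library for it and yet above the controls. The list's median was 1.13 in the mean of leukaemia libraries 1 to 3 and 0.38 in library 4. With the background covariate 12 of the 48 rose (median 0.56). The mitochondrial respiratory chain followed, with 17 of 28 tested oxidative phosphorylation genes higher and 0 lower (median 0.81), led by Cox4i1, Atp5b and Atp5c1 at 1.27, 1.34 and 1.10. Glycolysis genes divided 9 higher and 2 lower of 15, with Gpi1, Eno1 and Gapdh at 1.36, 1.26 and 1.07. Chaperones rose in 7 of 9 tested genes, with the endoplasmic reticulum chaperone Hspa5 at 350.2, 352, 279 and 226 CPM against 89.0, 95.8, 117 and 82.6 CPM (1.65, SE 0.19). Processing and Myc target genes of ribosome biogenesis rose in 6 and fell in 2 of 21, near the 29.7% of all genes tested that rose.

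Erythroid and megakaryocytic genes did not move as a block. In the erythroid list 2 of 10 tested genes rose and 4 fell, against 29.7% and 22.4% of all genes tested. The 2 that rose were the adult beta globins: Hbb-bs was at 67.3, 140.3, 171 and 46.6 CPM in leukaemia against 11.3, 14.7, 7.26 and 12.1 CPM (3.24, SE 0.44, edgeR adjusted p = 0.000602), and Hbb-bt at 90.4, 191, 249.9 and 41.1 CPM against 13.6, 12.1, 13.3 and 16.5 CPM. These 2 genes are near-identical copies, so reads may be shared between them. The alpha globin Hba-a1, which a red cell makes in balance with beta, was at 29.8, 11.9, 7.39 and 65.5 CPM against 17.8 to 30.2 CPM and did not pass the test (0.32, edgeR adjusted p = 0.653). The 2 beta globin genes were thus highest in leukaemia libraries 2 and 3, in which Hba-a1 was lowest. Klf1 and Epor, which define the erythroid lineage, failed the filter. Of the platelet genes 3 of 9 rose and 4 fell, against the same 29.7% and 22.4%. Plek, found in platelets and other blood cells, rose by 2.17, and the defining markers Pf4, Ppbp and Gp1bb were above background in none of the 8 libraries.

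Of the 4 defining mast cell and basophil markers, 2 were high in leukaemia libraries 1 to 3 and 2 were low there. Cpa3, the mast cell carboxypeptidase, was at 49.7, 143 and 175 CPM there, at 15.6 CPM in leukaemia library 4 and at 5.55 to 14.0 CPM in the controls. Mcpt8, a basophil protease, was at 46.6, 93.9 and 73.3 CPM, at 9.33 CPM in library 4 and at 5.01 to 9.41 CPM in the controls. Prss34, another basophil protease, was instead at 0 to 2.80 CPM in leukaemia libraries 1 to 3, at 11.7 CPM in library 4 and at 10.3 to 16.9 CPM in the controls. Fcer1a, a chain of the IgE receptor, was at 0.54 to 1.19 CPM, at 4.66 CPM in library 4 and at 3.25 to 8.32 CPM in the controls. None of the 4 passed the filter, which asked for 4 libraries, so no test was made. Of the list of 21 mast cell, basophil and eosinophil genes 4 were tested, 1 rose and 0 fell (median 0.096). Over all genes tested 29.7% rose and 22.4% fell. Like Gata2, Cpa3 and Mcpt8 were highest in leukaemia libraries 2 and 3.

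The antibody genes Ighm, Igkc and Jchain were lower in leukaemia, with 1 control far above the rest. Ighm, the heavy chain of immunoglobulin M, was at 153, 214, 146 and 121 CPM in leukaemia and at 452, 547, 6935 and 734 CPM in the controls (-3.77, SE 0.89, edgeR adjusted p = 0.00865). Igkc, the kappa light chain, was at 76.8, 113, 21.4 and 6.1 CPM against 272, 344, 3519 and 380.5 CPM (-4.38, SE 1.12, edgeR adjusted p = 0.0118). Jchain, the joining chain of secreted antibody, was at 25.0, 16.2, 1.54 and 3.59 CPM against 78.6, 78.2, 912 and 99.1 CPM (-4.62, SE 1.11, edgeR adjusted p = 0.0091). Control 3 was far above the other controls for these 3 genes, and no leukaemia library reached any control. Without control 3 the changes were -1.87, -2.61 and -2.85 (edgeR adjusted p = 0.002, 0.0304 and 0.0226). Ighm and Igkc lost their calls when all genes with at least 10 counts were scaled together (-2.31 and -2.70, edgeR adjusted p = 0.0638 and 0.073) and with no filter (edgeR adjusted p = 0.0753 and 0.0727). The B cell markers Pax5 and Ms4a1 were above background in none of the 8 libraries, and the 5 B cell markers summed to 32.0 to 126 CPM in leukaemia and 127 to 179 CPM in the controls. Control 3 was also the control with the highest Y-linked signal (18.1 CPM of all counts against 2.25 to 4.18).

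Of 8 tested genes of MHC class II and antigen presentation 2 rose, 0 fell and 6 did not pass the test, against 29.7% higher over all genes tested. The 2 were Cd74 and H2-Ab1. Cd74, the invariant chain, was at 627, 91.1, 155 and 85.9 CPM in leukaemia and at 28.2, 29.2, 104 and 22.2 CPM in the controls (2.37, SE 0.74, edgeR adjusted p = 0.0247). H2-Ab1, a class II chain, was at 302, 34.1, 57.7 and 63.7 CPM against 21.5 to 32.0 CPM (2.10, SE 0.62, edgeR adjusted p = 0.0202). Library 1 held by far the most of both. Without it Cd74 did not pass (1.25, edgeR adjusted p = 0.0799) and H2-Ab1 changed by 0.95. Without control 1, 2 or 4 the call of Cd74 was lost too (edgeR adjusted p = 0.065 to 0.0683), as was that of H2-Ab1 without control 1 or 4 (edgeR adjusted p = 0.0538 and 0.0532). With the background covariate neither passed (Cd74 1.04 and H2-Ab1 1.39, edgeR adjusted p = 0.332 and 0.192). Of the type I interferon genes 7 of 14 rose and 2 fell (median 0.70), against 29.7% and 22.4% of all genes tested. The counts were 4 and 0 without leukaemia library 1. Trim30a, a restriction factor, and Oas1a, a sensor of viral RNA, rose by 1.09 and 1.05. Ifnar2 and Ifngr1, receptor chains for interferons, rose by 1.37 and 0.94, the call of Ifngr1 being lost with the covariate (0.82, edgeR adjusted p = 0.0588).

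**Figure D3:**
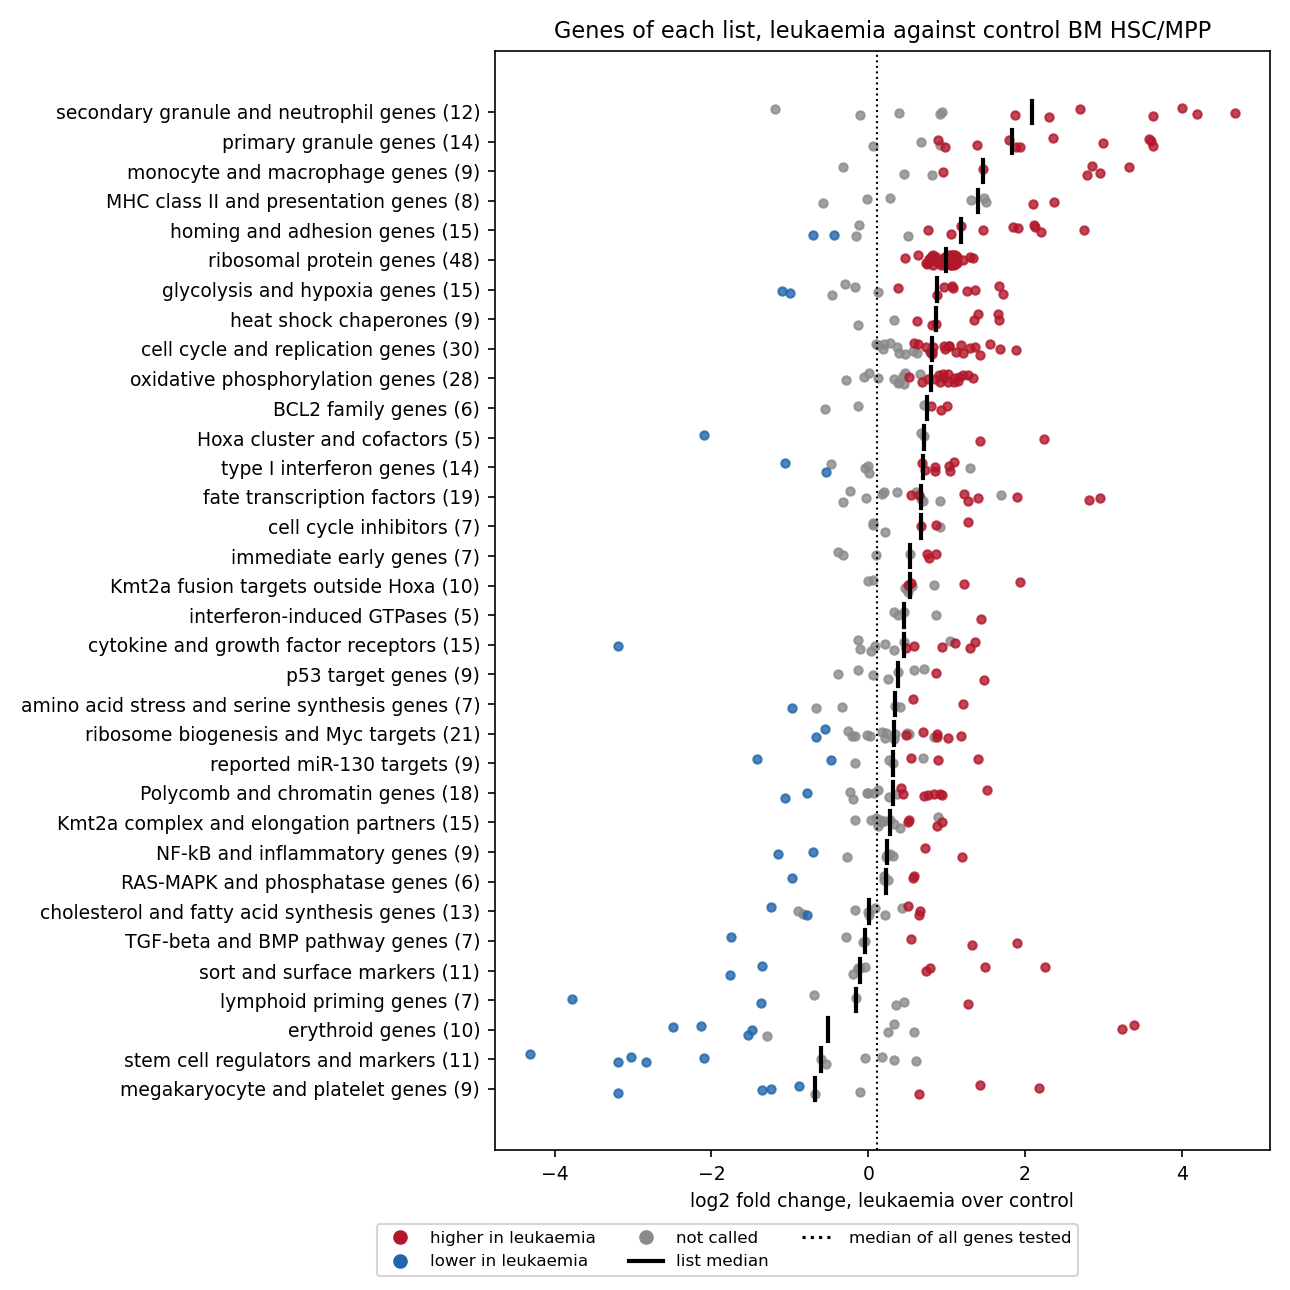
Log2 fold change of leukaemia over control (horizontal axis) for every tested gene of each gene list with at least 5 tested genes, the number tested in brackets; red points were higher, blue points lower and grey points not called, black bars are list medians and the dotted line is the median of all genes tested (0.11). Granule lists stand farthest right (medians 2.09 and 1.84), while stem cell and platelet lists lie left of 0 (-0.60 and -0.68).

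Leukaemia library 4 differed from the other 3 in more than its background. Among the 1951 higher genes it was the lowest leukaemia library in 1337, and among the 1470 lower genes it was the highest in 1253; over all tested genes these numbers were 2474 and 2597. Median log2 ratios to the control mean were 2.88 in library 4 and 1.64 in the mean of the other 3 for secondary granule genes, 2.02 and 1.21 for monocyte genes, and 1.62 and 1.82 for primary granule genes. For stem cell genes the medians were -1.77 and -0.41, for HOXA genes and cofactors -0.30 and 0.97, and for the other fusion targets -0.52 and 0.72. Library 4 had the highest Lyz2, Elane, S100a9 and Ngp and the lowest Hoxa9, Hoxa10, Cdk6, Gata2 and Kit of its group. Mpo, Irf8 and Mpeg1 were instead highest in library 1, and Cebpa was lowest in library 4. Muc2, an intestinal mucin, and Zan, a sperm membrane protein, both picked after their values were seen, were at 208 and 137 CPM in leukaemia library 4, at 30.8 to 57.7 and 35.7 to 55.2 CPM in the other leukaemia libraries and at 259 to 431 and 241 to 301 CPM in the controls, and were called lower (-1.98 and -1.94, and -3.02 for Muc2 without library 4). Both calls were lost when all genes with at least 10 counts were scaled together (Muc2 -0.97 and Zan -0.82, edgeR adjusted p = 0.102 and 0.0856), and that of Muc2 with the covariate (-1.20, edgeR adjusted p = 0.0512). The part of background in the 1470 lower calls was not tested. With the covariate, a fit that leans on library 4, 204 of them remained lower. With subtraction of the expected background 1195 did.

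**Figure D4:**
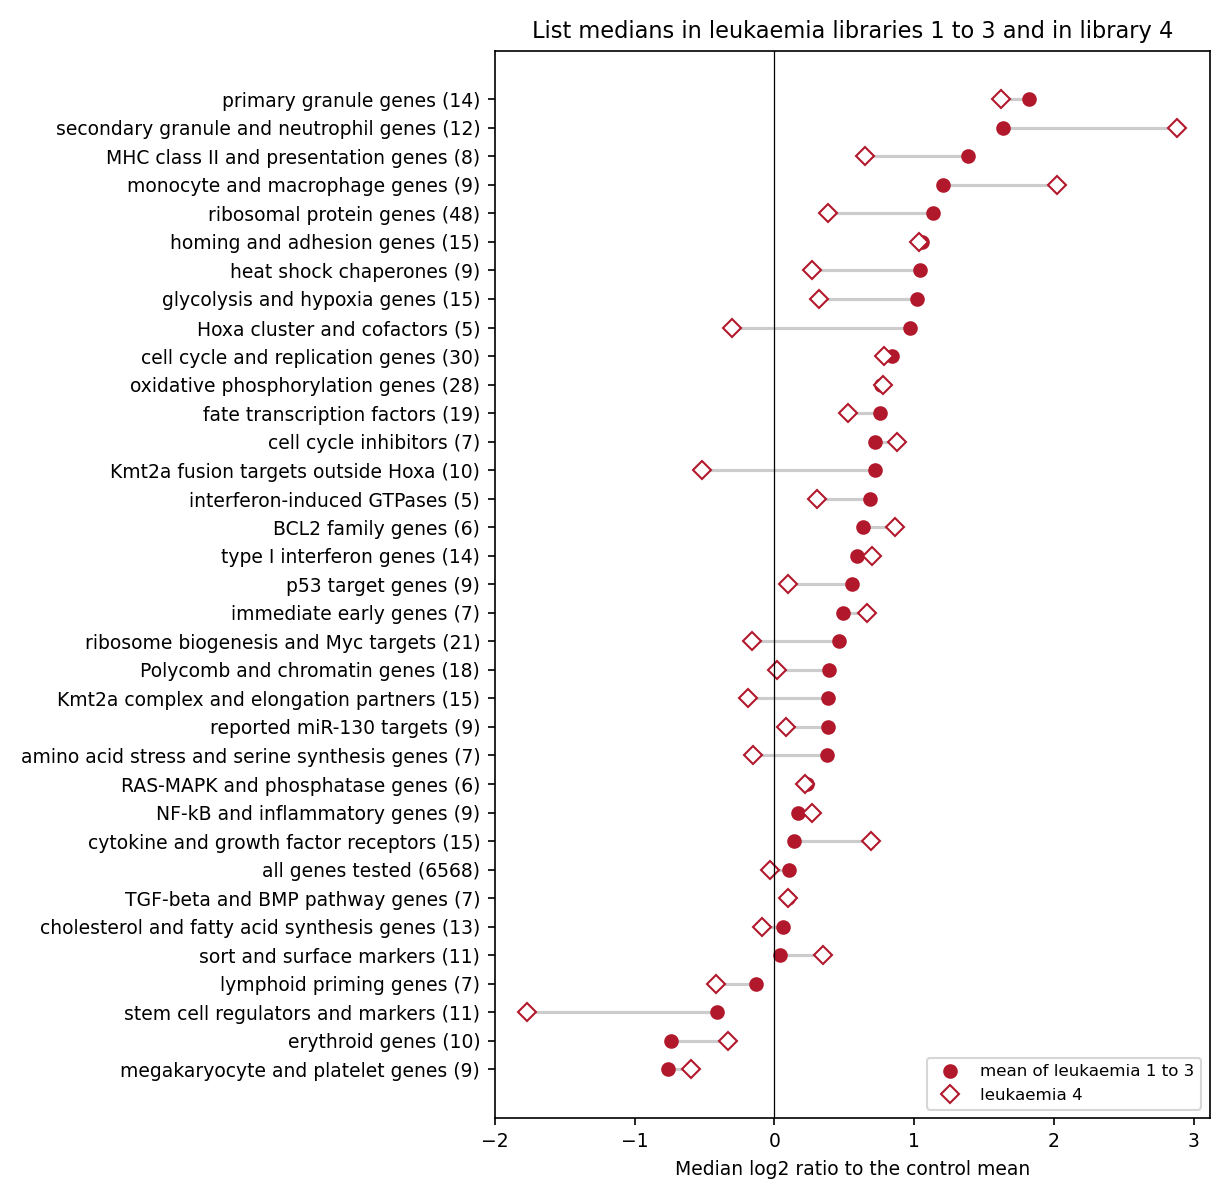
Median log2 ratio to the control mean (horizontal axis) of each gene list with at least 5 tested genes, the number in brackets; filled circles are the mean of leukaemia libraries 1 to 3 and open diamonds leukaemia library 4. Library 4 lies to the right for secondary granule genes (2.88 against 1.64) and to the left for stem cell genes (-1.77 against -0.41) and fusion targets (-0.52 against 0.72).

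The disease difference in HSC/MPP was set against the mean of the differences in LMPP and LK, in 1 fit over the 24 marrow libraries. The identifiers tied the 3 control populations to the same mice, and those of the leukaemia populations did not show which libraries shared a mouse, so libraries were treated as separate. Of 14939 genes tested, 153 (1.02%) had a more positive and 59 (0.395%) a more negative difference in HSC/MPP (1.42% together, edgeR, adjusted p below 0.05). A gene needed 4 of the 24 libraries above background, so it could enter through LMPP or LK alone. Background differed between the disease groups in LMPP, at 0.74% to 6.23% in leukaemia and 13.6% to 26.1% in the controls. In LK it was 0.92% to 8.6% and 6.33% to 12.1%, with overlap. Leukaemia LMPP library 3 had only 1.91 M counts. The part of background in the interactions and in the changes of LMPP and LK was not tested. The change of Mpo was 3.93 (SE 0.55) in HSC/MPP, 3.12 (SE 0.53) in LMPP and -1.52 (SE 0.50) in LK, an interaction of 3.13 (SE 0.62, edgeR adjusted p = 0.0149). Control LK already held 5819 CPM of Mpo (SD 1017, n = 4), against 72.7 CPM (SD 9.7, n = 4) in control HSC/MPP, on a scaling over all 36 libraries. Mpo was thus below its control level in LK and far above it in HSC/MPP.

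Of the genes with leading positive interactions, 3 rose most in HSC/MPP. Clec12a, a myeloid inhibitory lectin used as a leukaemia stem cell marker, rose by 3.37 in HSC/MPP, 2.44 in LMPP and 0.64 in LK (interaction 1.83, SE 0.23, edgeR adjusted p = 0.00054). Plac8 changed by 3.95, 2.99 and 0.68 (2.12, SE 0.32), and Atp8b4, a phospholipid flippase, by 2.57, 1.59 and -0.14 (1.85, SE 0.26). Cebpa changed by 3.14, 2.12 and 0.29 (1.94, SE 0.32). Control LK already held means of 126, 316, 241 and 91.6 CPM of Clec12a, Plac8, Atp8b4 and Cebpa, on the scaling over 36 libraries. Control HSC/MPP held 14.2, 18.4, 32.1 and 9.1 CPM. In leukaemia the HSC/MPP means were 149.5, 293, 195 and 85.0 CPM, below those of LK (196, 506, 219 and 111.5 CPM). Ctsg changed by 3.90 (SE 0.38), 3.57 (SE 0.38) and -0.435 (2.34, SE 0.43), so HSC/MPP lay close to LMPP and LK stood apart. In 3 others the change was negative in all populations and the most negative in LK. Ctse, the protease cathepsin E, changed by -0.51, -1.14 and -3.07 (interaction 1.59, SE 0.22, edgeR adjusted p = 0.00101), where the fit of HSC/MPP alone with all genes of at least 10 counts gave 0.53. Klf1, the erythroid factor, changed by -0.15 in HSC/MPP, -1.87 in LMPP and -5.39 in LK (interaction 3.48, SE 0.55). It was above background in 2 leukaemia and 0 control HSC/MPP libraries, so its change there was near the floor. Sept8, a septin, changed by -0.97, -2.88 and -4.85 (2.90, SE 0.46). 

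Among the genes with leading negative interactions were several that were higher in the other populations of leukaemia marrow. Itgax, the CD11c integrin, changed by -0.33 in HSC/MPP, 1.62 in LMPP and 2.50 in LK (interaction -2.40, SE 0.37, edgeR adjusted p = 0.00318). Siglech, a plasmacytoid dendritic cell receptor, changed by -0.23, 2.49 and 2.52 (-2.74, SE 0.46). In HSC/MPP it exceeded background in 2 leukaemia and 0 control libraries, so its change there was near the floor. Ighm changed by -3.46, 1.55 and 2.14 (-5.30, SE 0.83), and by an interaction of -3.36 without control 3. Trp53i11 changed by -1.01, -0.10 and 1.21 (-1.56, SE 0.29), and Mctp2 had an interaction of -1.48. Hlf and Meis1 fell in HSC/MPP without a difference from the mean of the other populations that passed the test (interactions 0.42 and -0.01 with SE 0.58 and 0.34). Hoxa9 was likewise higher by 1.78, 1.26 and 2.00 (interaction 0.15, SE 0.41). Counts of interactions depended on the libraries, with 1358 and 331 genes called without leukaemia library 4 and 37 to 97 and 10 to 55 without any other.

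**Figure D5:**
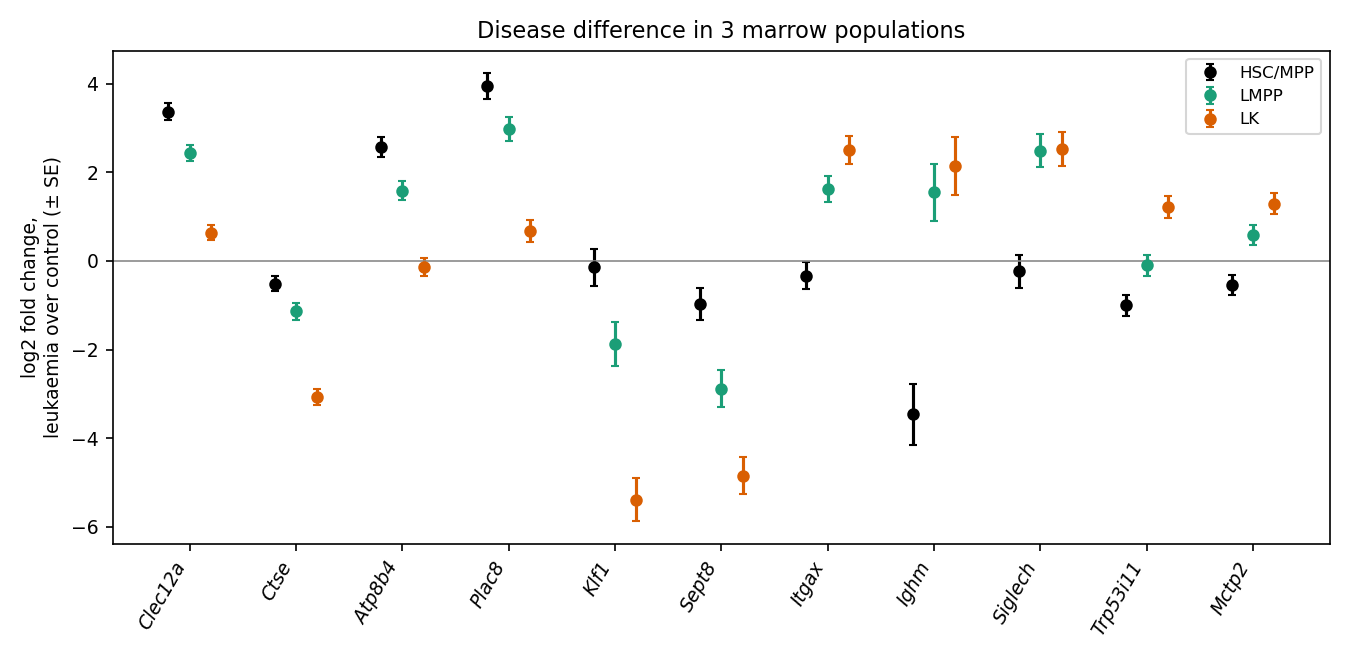
Log2 fold change of leukaemia over control with its standard error (vertical axis) for 11 genes among those with the smallest interaction p, in HSC/MPP (black), LMPP (green) and LK (orange), each from 4 against 4 libraries in 1 fit over 24. For Clec12a, Atp8b4 and Plac8 the black point is the highest (3.37, 2.57 and 3.95), and for Ighm it is the lowest (-3.46 against 1.55 and 2.14).

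The leukaemic HSC/MPP sorted from the CNS of the same 4 mice, by their identifiers, gave values against the same 4 control marrows that can be set beside those above, and both comparisons share these controls. Mpo was higher by 3.61 in marrow and 3.27 in CNS, Irf8 by 2.96 and 2.92, and S100a9 by 4.67 and 3.44. Hlf was lower by 4.32 in marrow, and its change was -3.34 in CNS. Meis1 changed by -2.10 and -2.24, Cdk6 by 1.94 and 1.48, and Cd74 by 2.37 and 3.63. Gata2, which did not pass in marrow, changed by 0.61 and -0.04. The sites themselves were not compared here.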

How the data were processed

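The deposited tables hold whole-number counts per gene for 36 libraries, 8 of them marrow HSC/MPP, although the authors named the files as normalised. The submitters' processing notes name DESeq2 and GRCm39, while no aligner, counter or strand choice is stated in the labels or files. All count columns were mapped to a sample by title (0 unmapped). Leukaemia and control tables were joined on gene identifier, with symbols and lengths from GENCODE M21 and sequences from RefSeq (GRCm38.p6). Genes entered the test if at least 4 libraries held more than 10 counts above 3 times the background that the gene's length predicts. edgeR 4.0.16 (R 4.3.3) with TMM scaling and the two-sided quasi-likelihood test was used, with Benjamini-Hochberg adjustment over all genes tested and a threshold of 0.05, and was checked on simulated data. DESeq2 1.42.0 and limma 3.58.1 were alternatives. Totals were 3.55 to 23.0 M counts, and nothing says that libraries are more than 1 sort per mouse. Named genes were the 12 largest rises and falls with a mean of at least 50 CPM, the leading genes of each list, 13 fixed genes and the 12 leading interactions; a few of these are not reported here, and other genes were chosen after their values were seen. The comparison, lists and tests were chosen with earlier results of these data known.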

Additional observations from a re-analysis of the deposited data

Results flagged for a closer look

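Of 262 sets of 4 libraries examined for 1 library far from the other 3, 30 had one. The threshold passes about 1 in 20 independent sets. These sets came from the same libraries, and some genes were chosen after their values were seen, so the 30 cannot be measured against that rate. Leukaemia library 4 was that library in 16 of the 30. It stood apart with a background of 25.9%, and was the highest of its group for Abca1 (72.8 CPM), Cebpb (50.2), Csgalnact1 (18.7), Elane (292), Epor (13.8), Fcer1a (4.66), Fgd5 (49.9), Kdr (48.8), Ly6c2 (350.4), Lyz2 (1253), Muc2 (208), Pbx3 (20.3), Procr (12.9), Retnlg (10.4) and Tie1 (35.7). Leukaemia library 1 was far above the rest for Cd74 (627 CPM), H2-Ab1 (302), Id2 (102) and Ifngr1 (110.5). Control 3 was far above the other controls for Ighm (6935 CPM), Igkc (3519), Jchain (912), Cd74 (104) and Ctse (47.5). Control 4 had the smallest total (3.55 M counts), the lowest Chil3 (6.99 CPM) and the highest Mpeg1 (24.1 CPM) and Gp1bb (2.54 CPM). Control 1 was highest for Flt3 (67.0 CPM).

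The disease difference in HSC/MPP departed from the mean of those in LMPP and LK, by a test of that contrast, for these leading genes: log2 differences of 1.83 for Clec12a, 1.59 for Ctse, 1.85 for Atp8b4, 2.12 for Plac8, 3.48 for Klf1, 2.90 for Sept8, -2.40 for Itgax, -5.30 for Ighm, -2.74 for Siglech, -1.56 for Trp53i11 and -1.48 for Mctp2. HSC/MPP was not tested against LMPP alone or LK alone. Klf1 and Siglech were each above background in 2 leukaemia and 0 control HSC/MPP libraries. Y-linked genes, set aside from the comparison, summed to 125, 106, 146 and 58.2 CPM of all counts in the 4 leukaemia libraries, above the controls.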

How the results depend on the processing

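The main comparison called 1951 genes higher and 1470 lower. The counts were 7378 and 695 with every gene of at least 10 counts, 7321 and 388 with no filter, 3188 and 828 with no scaling factor, 794 and 234 with the background share as a covariate, and 2233 lower by limma. These filters moved the median change of the same genes from 0.11 to 1.53 and 1.57, and no scaling to 0.59. Genes above background in 3 libraries of each group, chosen after seeing the data, gave 1049 and 761, from fewer genes tested. Leaving out 1 library gave 1521 to 2178 higher and 794 to 2243 lower. For the interaction, 153 and 59, DESeq2 gave 682 and 193, limma 1658 and 597, 10 counts 11 and 4, no filter 20 and 4, the genes tested in HSC/MPP alone (chosen after seeing the data) 325 higher, and leaving out 1 library 37 to 1358 and 10 to 331. Single genes that changed sign were Ly6a (1.30 with 10 counts, 1.33 with no filter), Ctse (0.53 and 0.57), Tsc1 (0.94, 0.98, and 0.02 with no scaling factor) and Myb (-0.059 with the covariate). The cause of these shifts was not tested. Replicate numbers did not pair the samples, which came from different mice: deviations of same-numbered libraries correlated at 0.15, 0.10, -0.02 and 0.29, and the replicate block gave 1882 higher and 1749 lower. Control 4 had the smallest total of the 8 libraries (3.55 M counts), and its effect on the precision of low genes was not tested.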
